A study of Mus musculus with 5 samples.

Results

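Integrins and laminins are the receptors and the ligands through which cells hold on to the basement membrane. The genes were taken from the expression table by their symbols, every row named Itga or Itgb for an integrin subunit or Lama, Lamb or Lamc for a laminin chain. These were 37 of 24330 genes, 26 integrin subunits (18 alpha and 8 beta) and 11 laminin chains (5 alpha, 3 beta and 3 gamma). The integrins were read as 18 matrix integrins and 8 leukocyte integrins, the leukocyte group being Itga4, Itgad, Itgae, Itgal, Itgam, Itgax, Itgb2 and Itgb7. RNA came from primary adipocytes isolated from the epididymal adipose tissue of wild type C57BL/6 mice 17 weeks old, and 3 libraries were sequenced, replicates 1, 2 and 3. The series also lists bisulfite libraries of wild type adipocytes and of adipocytes with an adipocyte-specific knockout of the maintenance DNA methyltransferase Dnmt1, which were not analysed here, so no genotypes were compared. The labels do not say whether the libraries came from separate mice, so SDs measure how far these samples differed, and that difference may be technical. The p-values test whether a pair of genes differed in level within these samples. They do not measure the spread between the samples, and they too cover these samples alone.

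An integrin is a pair of membrane proteins, 1 alpha and 1 beta subunit, and the combination decides which ligand it binds. The beta subunit encoded by Itgb1 joins many alpha subunits and makes the receptors for collagen, laminin and fibronectin, whereas that of Itgb2 is made by leukocytes and joins the alpha subunits of Itgal, Itgam, Itgax and Itgad. A laminin is a trimer of 1 alpha, 1 beta and 1 gamma chain and is the scaffold of basement membranes, which surround each adipocyte and line the capillaries between them. Levels are given in FPKM, that is fragments relative to the length of the transcript and to the size of the library, which allows genes to be set side by side. They measure a part of the sampled RNA and no amount per cell.

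The libraries differed in ways that bear on these genes. Replicate 1 had the most RNA of adipocyte markers and the least of endothelial ones. The summed level of 10 adipocyte markers (Cfd, Retn and others) was 12614, 4001 and 4224 FPKM in replicates 1, 2 and 3, and that of 10 endothelial markers (Cldn5, Esam and others) 1277, 2680 and 2549. All 10 macrophage markers were detected in every library, led by Lyz2 and C1qb, with a summed level of 2955, 2324 and 2531 FPKM. The 9 mural cell markers (Rgs5, Tagln and others) summed to 479, 603 and 1027 and the 8 mesothelial markers (Upk3b, Msln and others) to 41.7, 74.8 and 156. The 8 spermatid and sperm markers (Prm2, Prm1 and others) summed to 1279, 23.7 and 9.76. The preparation thus held RNA of cells other than adipocytes, and a bulk level cannot tell fewer cells of a type from less RNA per cell. The table gives no read counts. The depth of the libraries is therefore unknown, and counting error could not be estimated.

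Detection, taken as FPKM 1 or more in every library, was met by 21 of the 37 genes, against 45.5% of all genes. By group it was met by 10 of 18 matrix integrins, 4 of 8 leukocyte integrins and 7 of 11 laminin chains. In mean level 16 of the 37 genes lay above 10 FPKM, 9 between 1 and 10 and 12 below 1. The group median on the log2(FPKM + 0.1) scale was 3.43, 3.42 and 3.73 for the laminin chains in replicates 1, 2 and 3, against 1.23, 1.34 and 2.37 for the matrix integrins and 1.31, 0.48 and 1.31 for the leukocyte integrins. Over all genes it was 0.37, -0.71 and -0.24. The laminin chains exceeded the matrix integrins by 1.88 ± 0.455 log2 units (SD, n = 3) and the leukocyte integrins by 2.49 ± 0.414, higher in 3 of 3 libraries each. With the mean over members in place of the median these gaps were 0.73 and 0.96. The matrix integrins exceeded the leukocyte integrins in replicates 2 and 3 and not in replicate 1, with differences of -0.08, 0.86 and 1.06, so the mean of 0.61 had an SD of equal size, 0.61, and the direction was not common to the libraries. A median over a group follows which genes the group holds, and each group spanned from well-expressed genes to genes near 0.

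**Figure D1:**
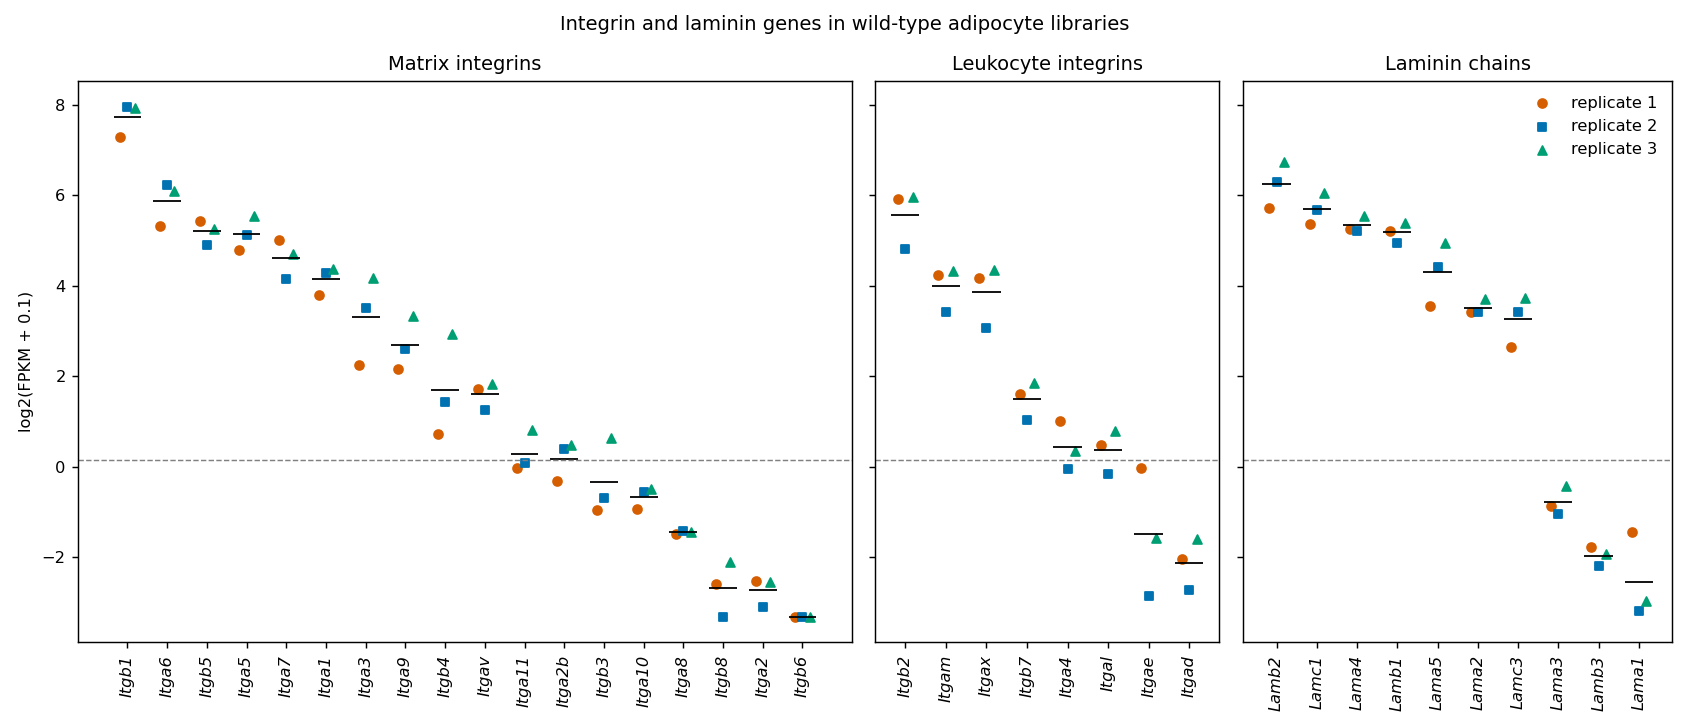
Level of 36 of the 37 genes on the log2(FPKM + 0.1) scale in replicates 1, 2 and 3 (circle, square and triangle), by group and in falling order of mean FPKM, with a bar at the mean of the log2 values. The dashed line marks FPKM 1, and Itgb1 is the highest in each library.

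Itgb1, the common beta subunit of matrix receptors, was the highest of the 37 genes, at 155.5, 248.8 and 242 FPKM in replicates 1, 2 and 3. Its lowest value exceeded the highest value of the next gene, Lamb2, which was 106.5 FPKM, and its mean lay above that of 98.6% of all genes. Of the 36 neighbouring places in the order of mean level, 32 held genes whose ranges over the libraries overlapped, so most single steps in the order were within the spread. Steps without overlap lay between Itgb1 and Lamb2, between Itgb7 and Itga4, between Itga8 and Lamb3, and between Itga2 and Itgb6, which was listed at 0.

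The sequences upstream of 6 of the genes are shown because the series is about DNA methylation, which in mammals falls mainly on CpG, and because pairs that lie next to each other on a chromosome, with unequal or with nearly equal levels, can be set side by side. The 250 bases before a start of transcription were taken from RefSeq (GRCm38.p6). They are written 5′ to 3′ along the gene, with CG dinucleotides in capitals. The windows of Itgax and Itga8 reach into the RefSeq gene, whose outer end lies at 128129526 for Itgax and 12301985 for Itga8. Such windows were found for 23 of 37 genes, and at 62.2% this is too few to compare CpG content between the groups, so the sequences are described singly. Over all 32851 windows the median number of CpG was 6, with quartiles of 2 and 16.

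The pair Itga1 (chr13:115101965-115102214, minus strand) and Itga2 (chr13:114932101-114932350, minus strand) had 10 and 12 CpG, close to each other although the levels of the genes were far apart.
Itga1: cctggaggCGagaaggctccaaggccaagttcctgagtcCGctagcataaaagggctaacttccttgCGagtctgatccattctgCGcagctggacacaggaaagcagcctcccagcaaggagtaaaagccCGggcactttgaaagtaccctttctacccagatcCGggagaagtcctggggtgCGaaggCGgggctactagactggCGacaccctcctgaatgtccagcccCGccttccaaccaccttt
Itga2: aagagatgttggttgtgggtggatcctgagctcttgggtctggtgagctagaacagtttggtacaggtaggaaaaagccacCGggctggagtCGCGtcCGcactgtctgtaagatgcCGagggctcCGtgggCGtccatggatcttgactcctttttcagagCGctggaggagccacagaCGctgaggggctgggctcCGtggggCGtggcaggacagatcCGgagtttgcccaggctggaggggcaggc

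The pair Itgam (chr7:128062390-128062639, plus strand) and Itgax (chr7:128129300-128129549, plus strand) had 6 and 5 CpG and the genes similar levels. The purine-rich letters GAGGAA, the core bound by the myeloid factor PU.1, were found 2 times in the window of Itgam and not in that of Itgax when either strand was searched, and 23.3% of all windows hold them. Of the other windows shown, that of Itgb1 held them 1 time and those of Itga1, Itga2 and Itga8 did not. Among the windows not shown, those of the matrix integrins Itgav and Itga2b held them 2 times each.
Itgam: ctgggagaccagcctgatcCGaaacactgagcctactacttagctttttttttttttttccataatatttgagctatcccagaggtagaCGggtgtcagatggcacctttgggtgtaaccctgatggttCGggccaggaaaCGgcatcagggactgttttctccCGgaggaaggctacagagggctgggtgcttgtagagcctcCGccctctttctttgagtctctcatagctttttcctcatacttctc
Itgax: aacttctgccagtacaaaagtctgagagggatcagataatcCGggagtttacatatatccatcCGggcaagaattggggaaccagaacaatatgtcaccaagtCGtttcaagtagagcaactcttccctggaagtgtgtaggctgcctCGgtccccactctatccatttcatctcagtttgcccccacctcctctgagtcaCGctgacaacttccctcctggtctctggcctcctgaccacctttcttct

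The window of Itgb1 (chr8:128685404-128685653, plus strand), the highest gene, had 21 CpG, more than 83.7% of all windows, and that of Itga8 (chr2:12301945-12302194, minus strand), a gene near 0.266 FPKM, had 18, more than 78.3%. The GC box letters GGGCGG were found 1 time each in the windows of Itgb1 and Itgam and not in those of Itga8, Itga1, Itga2 and Itgax. Either strand was searched, and 32.7% of all windows hold them.
Itgb1: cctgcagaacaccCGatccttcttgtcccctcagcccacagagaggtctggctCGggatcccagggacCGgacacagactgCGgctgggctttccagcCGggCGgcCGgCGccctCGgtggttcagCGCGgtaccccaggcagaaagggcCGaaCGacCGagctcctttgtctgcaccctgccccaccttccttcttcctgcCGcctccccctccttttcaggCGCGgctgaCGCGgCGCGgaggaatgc
Itga8: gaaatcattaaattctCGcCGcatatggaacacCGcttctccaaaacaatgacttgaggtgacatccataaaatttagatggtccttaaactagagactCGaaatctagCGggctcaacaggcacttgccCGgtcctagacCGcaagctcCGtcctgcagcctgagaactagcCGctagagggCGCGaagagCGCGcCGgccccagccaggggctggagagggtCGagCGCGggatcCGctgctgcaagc

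Beta subunits other than Itgb1 spanned from well expressed to a listed 0. Itgb5, a partner of Itgav in binding vitronectin, stood at 43.1, 29.8 and 38.2 FPKM in replicates 1, 2 and 3. Itgb1 exceeded Itgb5 by 2.52 ± 0.615 log2 units, and Itgb5 exceeded Itgb3, the vitronectin receptor subunit also found on platelets and osteoclasts, by 5.54 ± 0.885, or 4.43 with a pseudocount of 1 in place of 0.1. Itgb3 itself stood at 0.417, 0.516 and 1.46 FPKM, highest in replicate 3. Itgb4, which joins Itga6 in the anchoring junctions of epithelia, stood at 1.56, 2.60 and 7.51 FPKM. In replicate 3 it was at least 2-fold above each of the other libraries, as were 0.6% of the 11993 genes whose mean FPKM reached 1 (the expressed genes). Itgb8 was listed at 0 in replicate 2, beside 0.0656 FPKM in replicate 1 and 0.133 in replicate 3. Itgb6, a subunit of epithelia, was listed at 0 in every library. Of 7 epithelial markers, Krt5 was likewise listed at 0 throughout and Epcam stayed at 0.144 ± 0.0836 FPKM (SD, n = 3), while Krt7 stood at 1.46, 2.88 and 7.40.

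Among the alpha subunits that bind laminin, Itga6 was the highest in every library, at 39.6, 75.2 and 67.9 FPKM in replicates 1, 2 and 3. Its low value in replicate 1 went with the low endothelial markers there, and their part in it was not tested. Itga7, known best as the laminin receptor of muscle, ran the other way and stood at 32.1, 17.7 and 25.9 FPKM. The log2 ratio of Itga6 to Itga7 was accordingly 0.30, 2.08 and 1.39, positive in every library with a mean of 1.25 ± 0.896. Itga3, a laminin receptor of epithelia and mesothelium, stood at 4.68, 11.2 and 17.9 FPKM. It was at least 2-fold lower in replicate 1 than in each of the others, as were 1.62% of expressed genes. The summed mesothelial markers were also lowest in replicate 1 and highest in replicate 3, as was Itgb4, and their part in the levels of Itga3 and Itgb4 was not tested. Reads of Itgb4 and Galk1, and of Itga7 and Mettl7b, come from overlapping loci, and the sources used here do not say that strand was kept.

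Collagen receptors were carried almost wholly by Itga1. It stood at 13.9, 19.4 and 20.6 FPKM in replicates 1, 2 and 3. Itga11, a collagen receptor of fibroblasts, stood at 0.874, 0.962 and 1.65, and Itga10, known from cartilage, at 0.419, 0.574 and 0.608. Itga2, the collagen receptor of platelets and epithelia, was lowest at 0.0741, 0.0172 and 0.0701 FPKM. Itga1 thus exceeded Itga11 by 3.87 ± 0.317 log2 units and Itga2 by 6.88 ± 0.527, each in 3 of 3 libraries. Both values depend on the pseudocount and were 3.13 for Itga11 and 4.15 for Itga2 with a pseudocount of 1. The gene Pelo lies within Itga1 and stood at 11.5, 16.3 and 16.4 FPKM, so reads of the pair may not be fully told apart.

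Of the alpha subunits that bind the RGD motif, Itga5, the fibronectin receptor, was the main one, at 27.6, 34.5 and 46.6 FPKM in replicates 1, 2 and 3. Itgav, the alpha subunit shared by vitronectin receptors, stood at 3.20, 2.28 and 3.42. Itgav was lower than Itga5 in 3 of 3 libraries, with a log2 ratio of -3.55 ± 0.426. Itga8 was near 0.266 FPKM in each library, with a range of 0.257 to 0.275. Itga9, a receptor for tenascin and for ligands of lymphatic endothelium, stood at 4.34, 5.99 and 10.0 and exceeded Itga8 by 4.15 ± 0.586 log2 units, or 2.55 with a pseudocount of 1 in place of 0.1. Itga2b, the platelet partner of Itgb3, stood at 0.704, 1.20 and 1.28 FPKM. Of 8 platelet and megakaryocyte markers, 2 were detected in every library, Pf4 at 248.6 ± 29.6 FPKM and Ppbp at 2.74 ± 0.618. Pf4 stood apart from the list, whose median on the log2(FPKM + 0.1) scale was -1.18, -0.69 and -0.03, and Gp6 was listed at 0 in replicate 2.

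Summed over its 12 alpha partners (Itga1 to Itga11 without Itga2b, and Itgav), the alpha RNA that can join Itgb1 stood at 129, 169 and 196 FPKM in replicates 1, 2 and 3. The ratio of that sum to Itgb1 was 0.829, 0.679 and 0.810, so the beta subunit exceeded its partners in every library. The 3 laminin-binding subunits made up 59.2, 61.6 and 56.9% of the sum. The 3 RGD-binding ones made up 24.1, 21.9 and 25.7%, and the 4 collagen-binding ones 11.8, 12.4 and 11.7%. The shares of the classes differed between libraries by less than those of Itga6 and Itga7 within the laminin-binding class, Itga6 holding 30.7, 44.5 and 34.6% of the sum and Itga7 24.9, 10.5 and 13.2%. Some partners also join other beta subunits (Itgav joins Itgb3, Itgb5, Itgb6 and Itgb8, Itga6 joins Itgb4 and Itga4 joins Itgb7), and RNA levels do not give protein levels. These sums were formed after the values had been seen.

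**Figure D2:**
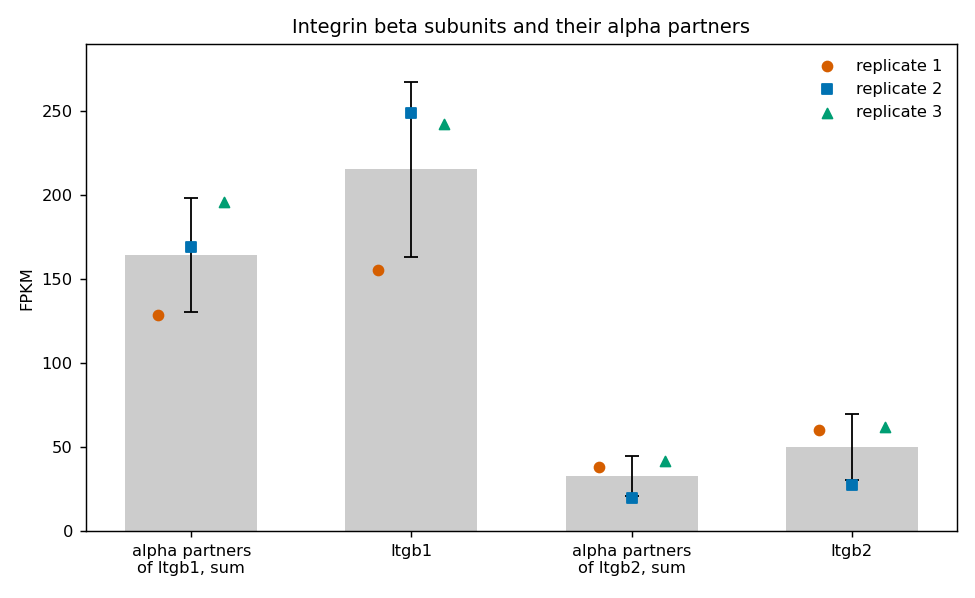
FPKM of Itgb1 and Itgb2 beside the summed FPKM of their alpha partners, with grey bars at the mean, error bars of 1 SD over 3 libraries and the libraries as points (circle, square and triangle for replicates 1, 2 and 3). Each sum lies below its beta subunit in every library, and Itgb2 and its partners are both lowest in replicate 2.

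Leukocyte integrins were led by Itgb2 and its myeloid alpha partners. Itgb2 stood at 60.6, 27.9 and 62.2 FPKM in replicates 1, 2 and 3. Itgam, the alpha subunit of the complement receptor of macrophages and neutrophils, stood at 18.9, 10.6 and 19.9, and Itgax, a subunit of dendritic cells and of macrophages in fat, at 17.95, 8.25 and 20.2. All 3 genes were lowest in replicate 2, where Itgb2 and Itgax were at least 2-fold below each of the other libraries, as were 1.79% of expressed genes. Itgam and Itgax did not differ beyond their spread, with log2 ratios of 0.07, 0.35 and -0.02 and a mean of 0.13 ± 0.194 (exact two-sided sign-flip p = 0.5, n = 3). Itgal, the alpha subunit of the lymphocyte receptor for ICAM proteins, stood at 1.28, 0.794 and 1.62 FPKM. Itgam exceeded Itgal by 3.63 ± 0.128 log2 units in 3 of 3 libraries, or 2.94 with a pseudocount of 1. Itgad stood at 0.143, 0.0508 and 0.230. The 4 alpha partners summed to 38.2, 19.7 and 41.9 FPKM, and their ratio to Itgb2 was 0.631, 0.705 and 0.673. Itgam held 49.3, 53.7 and 47.5% of that sum and Itgax 47.0, 42.0 and 48.1%.

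The integrins of lymphocytes were low. Itgb7, which joins Itga4 for homing to the gut and Itgae for binding to epithelia, stood at 2.95, 1.94 and 3.499 FPKM in replicates 1, 2 and 3. Itga4 stood at 1.91, 0.860 and 1.17. Itga5 exceeded Itga4 by 4.72 ± 0.813 log2 units, or 4.003 with a pseudocount of 1, and Itgb2 exceeded Itgb7 by 4.07 ± 0.270, each in 3 of 3 libraries. Itgae stood at 0.880, 0.0379 and 0.233 FPKM and was highest in replicate 1. The germ cell kinase gene Gsg2 lies within Itgae and stood at 5.34, 0.147 and 0.216 FPKM, and its part in the level of Itgae was not tested. T and NK cell markers were low as well, and 0 of 10 were detected in every library. Their median on the log2(FPKM + 0.1) scale was -1.21, -2.38 and -0.90 in replicates 1, 2 and 3. Cd2, the highest of them by mean, stood at 2.71, 0.558 and 2.34 FPKM. Cd3e had a listed 0 in replicate 2, beside 0.111 in replicate 1 and 0.0628 in replicate 3.

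All 8 leukocyte integrins were lowest in replicate 2, against 48.9% of the genes above 0 in any library. Counting only expressed genes it was 6 of 6 against 48.1%. The count stayed at 8 when values were centred on the median of each library, but no leukocyte integrin was then 2-fold apart. Markers of macrophages were also mostly lowest there, 8 of 10, but by smaller steps. Adgre1 stood at 33.6, 29.4 and 30.1 FPKM, Csf1r at 141, 108 and 115 and C1qb at 409, 379 and 395 in replicates 1, 2 and 3. The marker of macrophage lysosomes Cd68 moved more, at 172, 126 and 212. Mrc1 at 65.7, 47.4 and 38.7 and Cd163 at 46.0, 35.6 and 22.1 were lowest in replicate 3 instead. Of the macrophage markers 9 of 10 were highest in replicate 1, as were 5601 of the 11993 expressed genes. Of the leukocyte integrins 6 of 8 were highest in replicate 3, against 37.5% of the genes above 0 in any library. Of the dendritic cell markers 4 of 7 were lowest in replicate 2, of the neutrophil markers 5 of 7 measured and of the T and NK cell markers 8 of 10. These counts stand beside the same 48.9% of genes above 0. The summed level of the dendritic cell markers was 31.1, 29.1 and 34.7 FPKM. This sum was led by Zbtb46, at 8.02, 15.8 and 19.4, the 1 dendritic cell marker that was lowest in replicate 1. Of the others, 4 were lowest in replicate 2 and 2 in replicate 3, which the sum does not show. The summed level of the T and NK cell markers was 6.04, 3.46 and 6.75 FPKM. The summed level of the neutrophil markers was 7.73, 4.07 and 6.66 FPKM. Of the B cell markers 3 of 6 were lowest in replicate 2, near the 48.9% of genes above 0, and 5 were highest in replicate 3, against 37.5%. The B cell markers summed to 5.56, 5.57 and 11.1 FPKM, led by Cd79a at 2.29, 2.41 and 5.27. The part of any of these cells in the leukocyte integrin levels was not tested.

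**Figure D3:**
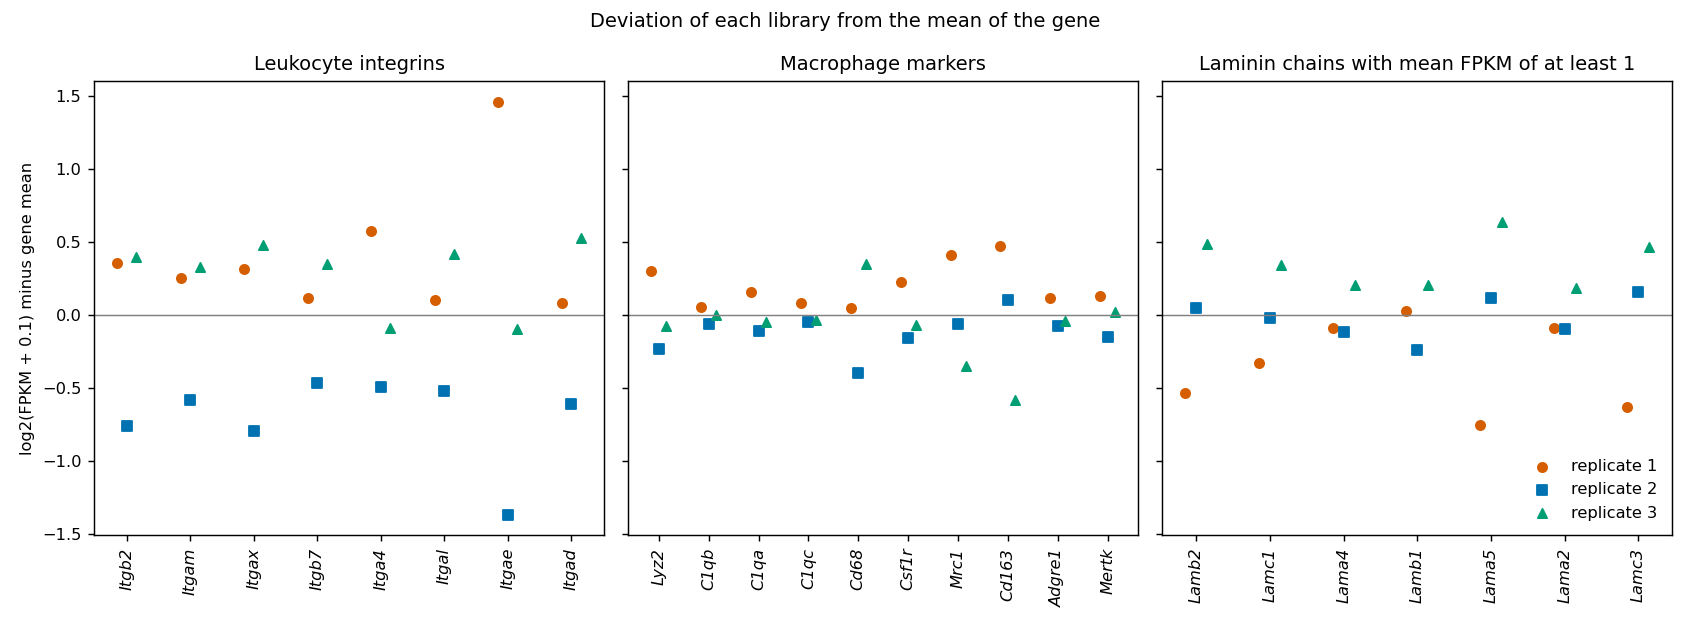
Deviation of each library from the gene's mean on the log2(FPKM + 0.1) scale for the leukocyte integrins, the macrophage markers and the 7 expressed laminin chains (circle, square and triangle for replicates 1, 2 and 3). Replicate 2 is lowest for 8 of 8 leukocyte integrins and 8 of 10 macrophage markers, and replicate 3 is highest for 7 of 7 of these laminin chains.

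Laminin alpha chains were led by Lama4, the chain of fat cell and vessel basement membranes, at 37.8, 37.2 and 46.4 FPKM in replicates 1, 2 and 3. Lama5, a chain of mature vessels and epithelia, stood at 11.6, 21.3 and 30.5 and was lowest in replicate 1. Lama2, the chain of muscle and nerve basement membranes, stood at 10.7, 10.6 and 12.9. The ratio of Lama4 to Lama2 was nearly constant, with log2 values of 1.82, 1.80 and 1.84 and a mean of 1.82 ± 0.0192. That of Lama4 to Lama5 was 3.26, 1.75 and 1.52, a log2 ratio of 1.03 ± 0.582, again above 0 in 3 of 3 libraries. Lama3, a chain of epithelia, stood at 0.444, 0.387 and 0.645 FPKM, and Lama1, the chain of embryonic basement membranes, at 0.267, 0.00870 and 0.0274. Lama5 exceeded Lama3 by 5.08 ± 0.570 log2 units, or 3.80 with a pseudocount of 1. Lama4 made up 62.2, 53.5 and 51.3% of the summed alpha chain FPKM, Lama5 19.1, 30.6 and 33.7% and Lama2 17.5, 15.3 and 14.3%.

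Of the beta chains, Lamb1 stood at 37.0, 30.8 and 42.0 FPKM in replicates 1, 2 and 3. Lamb2, the chain of vascular and muscle basement membranes, stood at 52.6, 78.7 and 106.5. Lamb1 was lower than Lamb2 in 3 of 3 libraries, with log2 ratios of -0.51, -1.35 and -1.34 and a mean of -1.07 ± 0.485. Lamb3, the epithelial beta chain, stood at 0.192, 0.118 and 0.161 FPKM. Of the gamma chains, Lamc1, which most laminins contain, stood at 41.1, 51.0 and 65.6, and Lamc3 at 6.10, 10.6 and 13.2. Lamc1 exceeded Lamc3 by 2.43 ± 0.261 log2 units, higher in 3 of 3 libraries.

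Since a laminin holds 1 chain of each kind, the sums over the kinds can be set side by side. The alpha chains summed to 60.7, 69.4 and 90.5 FPKM in replicates 1, 2 and 3, the beta chains to 89.8, 110 and 149 and the gamma chains to 47.6, 61.9 and 79.4. The beta sum over the gamma sum was 1.84 ± 0.0619 and the alpha sum over the gamma sum 1.18 ± 0.0834 (SD, n = 3). The totals differed between the libraries while these ratios stayed within a narrow range. Lamb2 held 67.3 ± 7.59% of the beta sum and Lamc1 83.8 ± 2.17% of the gamma sum. Lamc1 also exceeded Lama4, by 0.36 ± 0.206 log2 units, and Lamb1, by 0.51 ± 0.310, in 3 of 3 libraries each, and it was exceeded by Itgb1 by 2.03 ± 0.222.

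**Figure D4:**
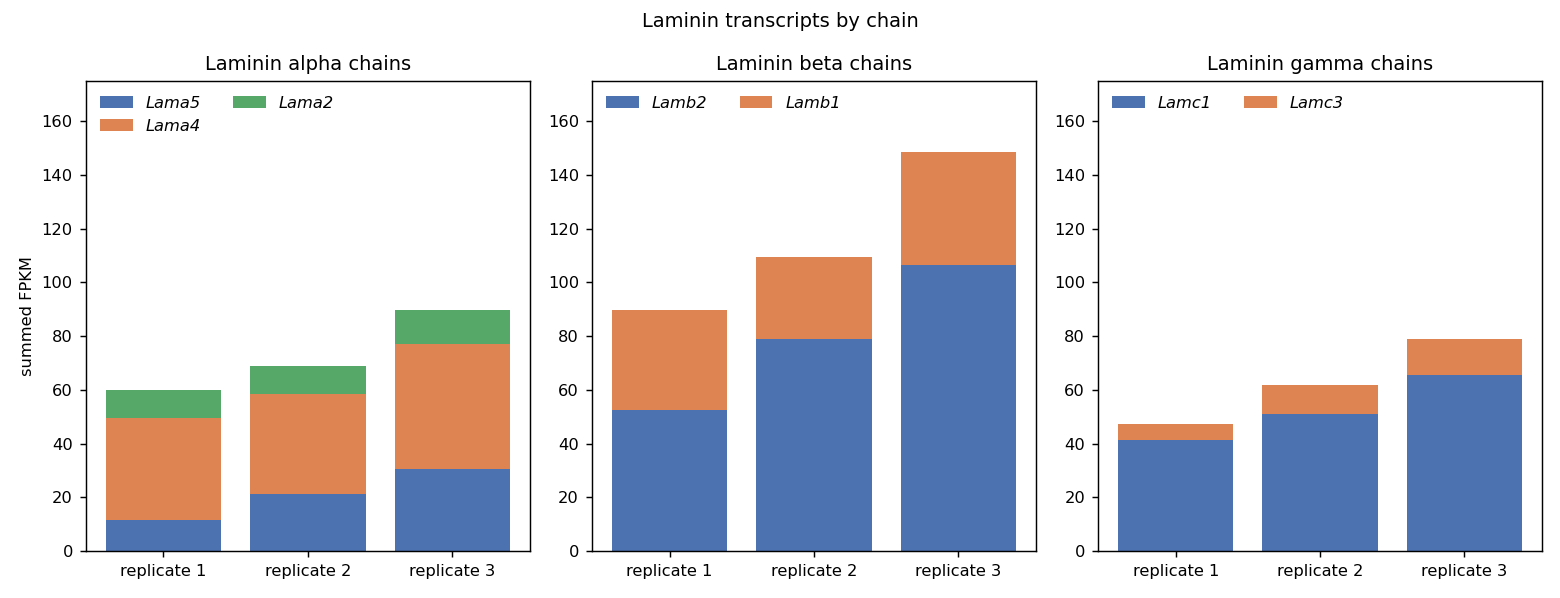
FPKM of the laminin alpha, beta and gamma chains with a mean of at least 1 FPKM in replicates 1, 2 and 3, stacked by gene from 0; chains below that are not drawn. Lama4, Lamb2 and Lamc1 hold the largest part of each kind in every library, and replicate 3 has the highest stack of each kind, with Lama4, Lamb2 and Lamc1 at 46.4, 106.5 and 65.6 FPKM there.

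Replicate 3 was the highest library for 9 of 11 laminin chains against 37.5% of the genes above 0, and for 7 of 7 expressed ones, against 42.5%. For the expressed matrix integrins it was 8 of 12. Of the 25 expressed integrin and laminin genes, 13 were lowest in replicate 1, against 32.8% of expressed genes, 12 in replicate 2, against 48.1%, and 0 in replicate 3, against 18.5%. None of the 25 was 2-fold above the other libraries in replicate 1 (7.73% of expressed genes) or replicate 2 (0.0584%), or 2-fold below them in replicate 3 (0.509%), and 4 of 25 were 2-fold apart in any way, against 11.1%. Proteins that share the basement membrane with laminins moved likewise, 11 of 12 being highest in replicate 3. These were led by Sparc, a collagen-binding matrix protein, at 902, 1493 and 1903 FPKM in replicates 1, 2 and 3, and by the type IV collagen chains Col4a1 at 160, 290 and 438 and Col4a2 at 123, 248 and 359. The lowest was Col4a3, a chain of kidney basement membranes, at 0.446 ± 0.0498. Mural markers were highest in replicate 3 in 9 of 9 cases, mesothelial markers in 8 of 8 and fibroblast markers (Dcn, Col3a1 and others) in 7 of 9. The fibroblast markers summed to 724, 858 and 1061 FPKM in replicates 1, 2 and 3. The part of these 3 cell types in the laminin levels was not tested. Between the highest and the lowest library, the 12 expressed matrix integrins differed by a median factor of 1.76, the 6 leukocyte integrins by 2.01 and the 7 laminin chains by 1.59, beside 1.39 over 11993 genes.

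Most receptors and partners outside the family were detected, and a few were near 0. Of 7 other laminin receptors all were detected in every library, against 45.5% of all genes, led by Rpsa, a ribosomal protein also described as a laminin receptor, at 422 ± 50.0 FPKM. Bcam, which binds the chain of Lama5, stood at 109, 179 and 247 in replicates 1, 2 and 3, and, like Lama5, was lowest in replicate 1. Mcam, which binds the chain of Lama4, stood at 117 ± 24.8, and Sdc2 was lowest at 10.4 ± 2.50. Of 23 integrin adaptors 22 were detected in every library, read against the same 45.5%. Lims2 stood at 179 ± 46.6, the GTPase gene Rap1b at 155 ± 18.4 and Ilk, the scaffold that binds beta tails, at 118 ± 14.7, and the epithelial kindlin Fermt1 was lowest, at 0.00535 and 0.00500 in replicates 1 and 2 with a listed 0 in replicate 3. The other kindlins, chosen for mention after their values were seen, differed in pattern. The widely expressed Fermt2 stood at 77.9, 128 and 116 FPKM and the leukocyte kindlin Fermt3 at 16.5, 10.5 and 17.1, lowest in replicate 2 like the leukocyte integrins. Of 16 integrin ligands 14 were likewise detected. Cyr61 stood at 425 ± 42.4, Icam1, a ligand of Itgb2 receptors, at 163 ± 42.7 and Thbs1 at 145 ± 55.6, and Cdh1, the ligand of Itgae, was lowest at 0.0713 ± 0.0331.

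Genes that lie beside each other on a chromosome could differ widely in level. Positions are those of the deposited table, counted from 1, in mouse build mm10, which the processing notes of the submitters name, and the start was that of RefSeq GRCm38.p6 for 20 of 37 genes. Itga2 (chr13:114835912-114932041) and Itga1 (chr13:114958081-115101964) lie 26.04 kb apart with no other gene of the table between them. Their upstream windows held 10 CpG for Itga1 and 12 for Itga2, and the FPKM of Itga1 was 187, 1128 and 294 times that of Itga2 in replicates 1, 2 and 3. These multiples rest on Itga2 values of 0.0741, 0.0172 and 0.0701 FPKM. With a pseudocount of 1 in place of 0.1 the mean log2 ratio was 4.15 and not 6.88. On chromosome 7, Itgam (chr7:128062640-128118491), Itgax (chr7:128129568-128150657) and Itgad (chr7:128173946-128205503) follow each other with gaps of 11.1 and 23.3 kb and no other gene of the table between them. Itgal (chr7:127296260-127335137) lies 728 kb before Itgam, with 41 genes of the table between. Itgam and Itgax had nearly equal levels and Itgad was near 0, although all 3 were lowest in replicate 2.

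**Figure D5:**
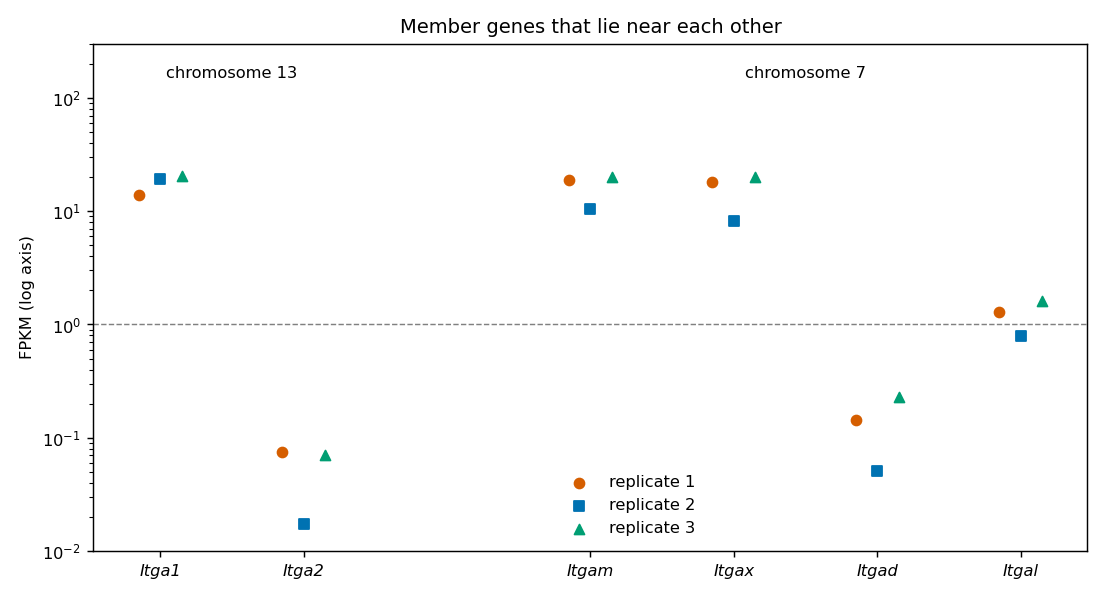
FPKM on a log axis of member genes that lie near each other on chromosomes 13 and 7, with replicates 1, 2 and 3 as circle, square and triangle and a dashed line at FPKM 1. Itga1 lies far above its neighbour Itga2 in every library, whereas Itgam and Itgax lie together, above Itgad and Itgal.

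In all 26 ratios between genes of the family were formed within each library, and 25 of them had the same sign in 3 of 3 libraries. The exact sign-flip test, two-sided, gave p = 0.25 for each of these 25, and 0.26 once adjusted by Benjamini-Hochberg for all 26 ratios. With 3 libraries 0.25 is the smallest p this test can give, so no ratio could pass 0.05. The ratio without a common sign was Itgam to Itgax.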

How the data were processed

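RNA-seq of 3 wild type adipocyte libraries was analysed. The authors deposited 1 table of FPKM values, not log scaled, with 1 column per library, matched to the samples by the column name in the sample description. The tool that gave the FPKM was not given in the sources used here. Featured without a role in the submitters' processing notes are featureCounts, Bismark 0.22.1, Trim Galore 0.5.0 and the builds mm10 and GRCm38. The lowest value above 0 was 6.06e-62, less than any whole fragment could give, so values were estimated, a listed 0 can be a failed estimate, and depth is unknown.

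The table held 24889 rows beside 1 line that was emptied. Of these, 27 rows whose symbol had become a date were dropped, and for symbols with several rows that with the highest mean was kept, leaving 24330 genes. Each of the 37 genes had 1 row. The spans of 19 of them overlap another RefSeq gene. Values were put on a log2(FPKM + 0.1) scale, which understates ratios of low genes, with Python 3.11.15, numpy 2.4.6 and pandas 2.3.3. Gene ratios were formed within libraries and tested with an exact sign-flip permutation. Of the procedures, only the call of the lowest library was tested on simulated data. The sign-flip test and the Benjamini-Hochberg adjustment were checked on set values. Errors are SDs over 3 libraries. Every integrin and laminin gene is named except 1, which is not reported here, and of each list of partners the 3 highest genes and the 1 lowest. The genes and lists were chosen with earlier results of these data known. Alternatives covered pseudocount, detection threshold, filters, mean for median, scaling to TPM, summed rows and leaving out each library.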

Additional observations from a re-analysis of the deposited data

How the results depend on the processing

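None of the 182 alternative values computed for the 26 gene ratios reversed the sign of the mean ratio, and none of the ratios, group medians or group differences moved by over 1.5-fold when a library was left out. Pseudocounts of 1 or 0.01 moved 10 ratios by over 1.5-fold. Rescaling to TPM raised log2 levels by 0.99, 1.03 and 0.93 in replicates 1, 2 and 3, and the group medians were then 4.52 for laminin chains, 2.62 for matrix integrins and 1.997 for leukocyte integrins. Over expressed genes alone (mean FPKM 1 or more) they were 5.19, 3.71 and 2.67. With a pseudocount of 1 the leukocyte median was 1.59, and laminin chains exceeded leukocyte integrins by 2.05. With means over members the laminin level was 2.47, and laminin chains exceeded matrix integrins by 0.73 and leukocyte integrins by 0.96. At a detection threshold of 5 FPKM, 6 matrix integrins were detected. Of genes 2-fold apart, centring on the library median gave 1 laminin chain and 0 leukocyte integrins, and without the filter on low values 1 laminin chain. Leaving out 1 library gave 0 to 3 laminin chains, 0 to 3 leukocyte integrins and 1 to 3 matrix integrins 2-fold apart. Of genes lowest in replicate 2, centring gave 4 laminin chains, and the restriction to expressed genes left 3 laminin chains and 3 matrix integrins. Without replicate 1 or replicate 3, the number lowest in replicate 2 ranged from 7 to 11 for laminin chains and from 5 to 14 for matrix integrins. Libraries could not be paired between groups because there was 1 group of them, so the only pairing was of genes within a library.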
